A study of Homo sapiens with 171 samples.

Results

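C13 is a human ovarian carcinoma cell line known as a derivative selected in cisplatin, and A2008 is taken here to be its parental line. Its response to the drug was measured in 6 cultures, 3 left untreated and 3 given cisplatin for 48 h, among the 171 arrays of 46 ovarian cancer lines. The arrays were picked out by their line and treatment labels, and all 6 carried the batch label 3. Every culture of both arms held the same selected line, so the untreated arm is already resistant-derived and had no drug in this experiment. Each line received the dose at its own GI50, a growth-inhibiting concentration, so C13 and A2008 were not given a common dose, and the doses themselves were not analysed here. For comparison, A2008 supplied 3 untreated and 3 treated cultures in batch 2, and the other 17 replicated lines of batches 1 to 3, A2008 included, supplied their own responses. Replicate cultures carry a number in the labels but no statement of separate growth, so the p-values reflect variation among these cultures that could be technical. A selected line is a single lineage, and it stands for resistant cells in general only as one case.

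Cisplatin binds purine bases and crosslinks them within and between DNA strands. The lesions stall replication forks, activate the checkpoint kinases and stabilise p53, which turns on genes of cell cycle arrest, repair and death. Cells survive them by exporting or binding the drug, by removing adducts through nucleotide excision repair, by copying past them with translesion polymerases, and by repairing crosslinks through the Fanconi anaemia pathway.

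Expression was read on Affymetrix gene arrays as log2 RMA values, so a difference of 1 is a 2-fold change. Each difference is the treated mean minus the untreated mean, with the standard error (SE) of a limma model that shares 1 spread per gene over 107 cultures of 18 lines. A gene was called changed at a Benjamini-Hochberg adjusted p under 0.05 over the 18417 genes tested. The level of a gene in a culture is compared with the same gene in other cultures, never with another gene.

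The untreated C13 profile correlated most closely with untreated A2008 among the 17 other lines (r = 0.972 across genes), and next with OVCA433 (r = 0.936). Of the epithelial markers in untreated C13, EPCAM stood at 11.21, against a median of 6.69 in the other lines, KRT8 at 12.44 against 12.15 and KRT18 at 12.47 against 12.27. KRT7 (8.25 against 9.84) and MECOM (8.23 against 9.28) were below that median. The müllerian factor PAX8 stood at 6.90, rank 11 of 18 lines, and the ovarian markers WT1 at 6.24, rank 7, and MUC16 at 5.20, rank 5. The leukocyte gene PTPRC (2.87) and the fibroblast genes DCN (2.76) and LUM (2.57) lay by the medians of the other lines (2.89, 2.85 and 2.50). Apart from PTPRC, CD79A and LYZ, each leukocyte marker measured was above its median in the other lines, CD68 the furthest (9.15 against 7.78). FCGR3A (3.67) ranked 1 of 18 lines, and CD3D and CD14 ranked 2. Fibroblast markers lay on both sides of those medians. The mean level of the 14 leukocyte markers ran from 4.76 to 4.92 untreated and from 4.56 to 4.80 treated, that of 11 endothelial markers from 5.07 to 5.15 and from 4.96 to 5.23, and that of 10 fibroblast markers from 4.79 to 4.82 and from 4.63 to 4.81.

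A single treated array stood apart from the rest before any gene was considered. Treated culture 2 had an upper quartile of 8.47, against 8.26 to 8.33 in the other 5 C13 arrays, and its highest correlation with another C13 array was 0.989, against 0.994 for each of those 5. In this culture, genes were grouped by level into 4 classes of equal size, whose median differences from the untreated mean were -0.15, -0.30, 0.12 and 0.15 from the lowest class to the highest. The corresponding medians of treated cultures 1 and 3 stayed between -0.08 and 0.04. Many counts below are therefore also given without this culture, and the rest include it.

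**Figure D1:**
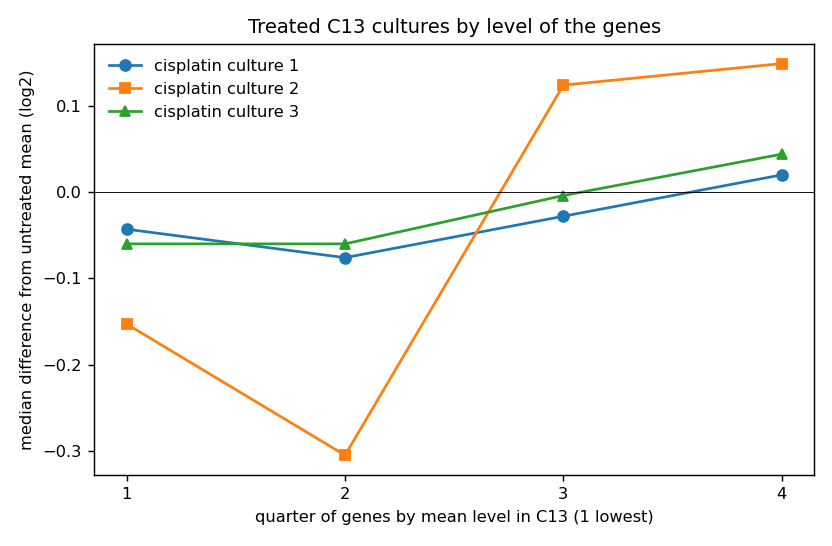
Median difference of each treated C13 culture from the untreated mean (log2, vertical axis) in 4 classes of genes ordered by mean level (horizontal axis, lowest first); each line is 1 culture. Culture 2 runs from -0.30 in the second class to 0.15 in the highest, while cultures 1 and 3 stay between -0.08 and 0.04.

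Cisplatin changed 3256 genes in C13, 1905 higher (10.3% of genes tested) and 1351 lower (7.34%). Of these, 140 rose and 41 fell by at least 2-fold, and the median size of a called change was 0.47. In 2974 of the called genes the treated and untreated cultures did not overlap, a state found in 6065 genes (32.9%) overall. Among the 18 replicated lines, C13 was number 3 by the number of genes called, after FU-OV-1 (5118) and PA-1 (4206). Without treated culture 2 the count was 1628, of which 1564 were among the 3256, and without untreated culture 2 it was 2104. Named genes that missed the threshold without treated culture 2 are listed beside their group. The median change over all genes was -0.04.

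The deepest falls in C13 were of histone genes. Replication-dependent histone genes lie in clusters, are transcribed during S phase and supply the proteins that package newly made DNA; their mRNAs end in a stem-loop instead of a poly(A) tail. Of 41 such genes measured, 32 fell (7.34% of all genes did) and none rose, with a median change of -1.35. In 33 the arms did not overlap (32.9% of all genes). The 15 largest falls among all genes were histone genes. These genes are near-identical copies, so a probe set can read more than one of them and separate values are uncertain; H4C14 and H4C15, which were outside the list, gave identical values.

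Genes of the linker and of all 4 core histones fell. Among H2B genes, H2BC14 stood at 11.90, 11.92 and 11.94 in the untreated cultures and at 8.81, 8.68 and 8.46 in the treated ones. That fall of 3.27 ± 0.17 (SE, n = 3 cultures per arm), or 9.66-fold (adjusted p = 7.76e-28), was the deepest of any gene, and the arms lay far apart. H2BC10 read 6.63, 6.75 and 6.73 untreated and 4.58, 4.66 and 4.30 treated, a change of -2.19 ± 0.16. The H4 gene H4C2 read 9.98, 9.95 and 9.88 untreated and 7.84, 7.79 and 7.75 treated, and its change of -2.15 ± 0.11 (adjusted p = 2.2e-27) left a wide gap between arms. The H2A gene H2AC4 changed by -2.13 ± 0.18 and the H3 gene H3C2 by -1.95 ± 0.18. Linker histone genes, whose proteins bind DNA between nucleosomes, fell too, in H1-5 (-1.91 ± 0.27), H1-2 (-1.82 ± 0.15) and H1-4 (-1.80 ± 0.13). The 9 members that did not pass included H1-3 (-0.45, adjusted p = 0.158), H3C3 (-0.42, adjusted p = 0.0682) and H3C8 (0.56, adjusted p = 0.099). With treated culture 2 left out, 29 members fell and the median was -1.44.

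The promoters of 3 H2B genes are shown because they carry, close to the start, the elements known for this class: the octamer, which binds OCT1, and the CCAAT box, which binds NF-Y. The 250 bases before the RefSeq start (GRCh38.p14, plus strand) are given 5′ to 3′, with the octamer ATTTGCAT and CCAAT boxes, on either strand, in capitals. The windows are chr6:27814772-27815021 for H2BC14, chr6:26272681-26272930 for H2BC10 and chr6:26251364-26251613 for H2BC9.
H2BC14: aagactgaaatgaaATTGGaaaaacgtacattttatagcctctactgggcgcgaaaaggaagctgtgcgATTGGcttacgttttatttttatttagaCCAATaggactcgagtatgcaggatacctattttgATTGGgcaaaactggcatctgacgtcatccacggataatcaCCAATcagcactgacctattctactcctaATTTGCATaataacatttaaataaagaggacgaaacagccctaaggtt
H2BC10: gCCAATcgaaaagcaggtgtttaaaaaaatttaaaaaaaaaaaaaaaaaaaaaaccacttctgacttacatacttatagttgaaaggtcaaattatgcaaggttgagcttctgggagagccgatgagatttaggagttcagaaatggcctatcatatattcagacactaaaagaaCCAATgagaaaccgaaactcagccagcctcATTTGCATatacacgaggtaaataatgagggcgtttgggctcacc
H2BC9: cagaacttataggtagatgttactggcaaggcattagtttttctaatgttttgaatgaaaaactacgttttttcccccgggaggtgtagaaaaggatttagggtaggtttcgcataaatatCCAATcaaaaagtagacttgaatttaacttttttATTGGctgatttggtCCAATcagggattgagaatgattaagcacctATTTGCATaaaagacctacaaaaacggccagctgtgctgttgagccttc
The octamer begins 48 bases before the start in H2BC14, 45 in H2BC10 and 49 in H2BC9, each with a forward CCAAT box just upstream, at 77, 75 and 80 bases.

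Of the 32 histone genes that fell, 27 matched an entry in the RefSeq promoter table, whose windows span 250 bases before to 50 after the first listed start of 27305 genes. Searched on both strands, CCAAT was found in 24 of the 27, against 35.7% of all windows, and the TATA box letters TATAAA in 18, against 12%. The octamer was in 12 of 27, against 1.8% of all windows: 6 of 8 H2B windows, 6 of 6 H2A windows and no H1, H3 or H4 window. The letters AAACACA, an element known from H1 promoters, were in each of the 3 H1 windows, against 5.76% of all. None of the marked octamers and CCAAT boxes overlap. A match describes letters in the window and shows nothing about binding in these cells.

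**Figure D2:**
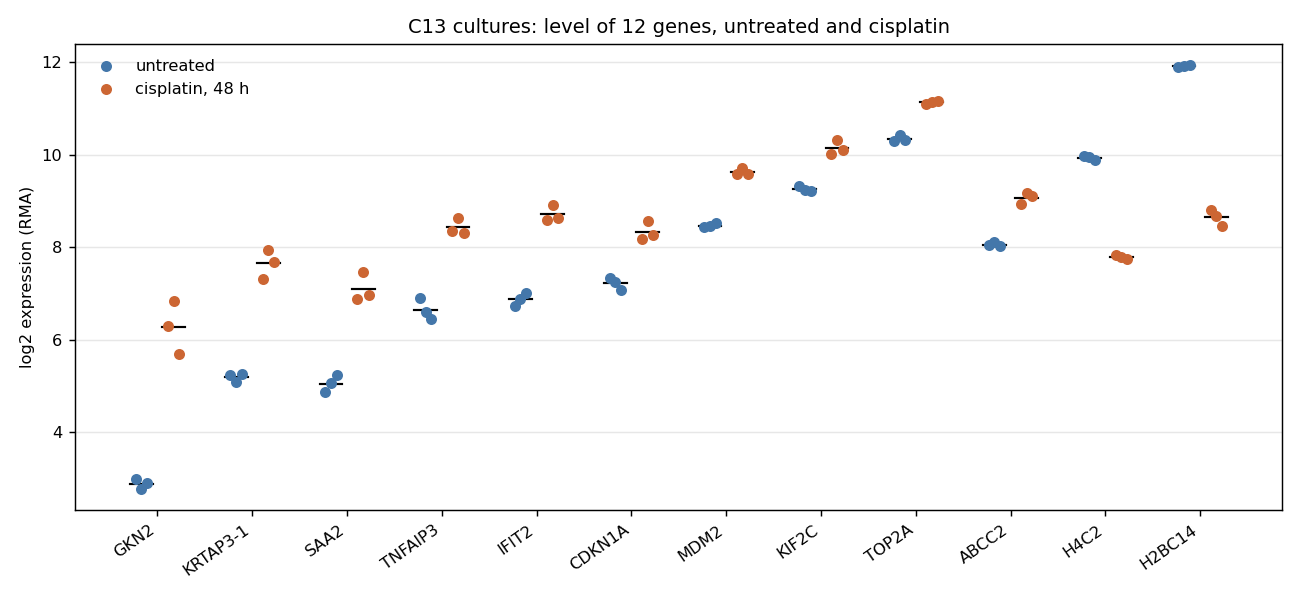
Log2 expression (vertical axis) of 12 genes in the 3 untreated (blue) and 3 cisplatin (orange) C13 cultures; each point is a culture and each bar the mean of an arm. The arms are apart in all 12 genes, with H2BC14 falling from 11.92 to 8.65 and GKN2 rising from 2.89 to 6.28.

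Other S-phase genes fell far less than the histones. DNA replication genes encode the helicase, its loaders and the polymerases. They had 10 of 31 members lower (7.34% of all genes were) and 2 higher (10.3% were), with a median of -0.09. GINS2, a helicase subunit, read 10.64, 10.50 and 10.59 untreated and 10.11, 9.86 and 9.81 treated, a change of -0.65 ± 0.13 (adjusted p = 8.58e-05). MCM6 changed by -0.60 ± 0.08, MCM5 by -0.49 ± 0.13, the clamp loader gene RFC4 by -0.45 ± 0.11 and CDC45 by -0.45 ± 0.11. The 2 members that rose were POLE (0.31 ± 0.11), the leading-strand polymerase, and ORC6 (0.29 ± 0.10), an origin factor. Leaving out treated culture 2 gave 8 members that fell, and POLE and ORC6 then missed the threshold. Of 19 G1/S genes, E2F3 (0.61 ± 0.12) and the phosphatase gene CDC25A (0.49 ± 0.11) rose, a share near that of all genes (10.3%). CDK4 fell (-0.39 ± 0.10), while CCNE2 was at 0.04 (adjusted p = 0.86).

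Genes of the G2 and M phases moved up while the histones moved down. Of 32 mitotic genes measured, 23 rose, against 10.3% of all genes, and none fell, with a median change of 0.39. In 25 the arms did not overlap (32.9% of all genes). KIF2C, a kinesin that takes apart microtubule ends, read 9.33, 9.24 and 9.22 untreated and 10.01, 10.32 and 10.11 treated, a rise of 0.89 ± 0.08 (adjusted p = 8.46e-14). TOP2A, which untangles sister chromatids, read 10.30, 10.43 and 10.32 untreated and 11.09, 11.14 and 11.17 treated, a rise of 0.79 ± 0.08 (adjusted p = 1.83e-13). In both genes each treated culture lay above each untreated one.

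Motor, kinase and checkpoint genes of mitosis rose by smaller amounts. The chromokinesin gene KIF4A rose by 0.76 ± 0.09, CDK1, the kinase that starts mitosis, by 0.63 ± 0.13, and the spindle checkpoint kinase TTK by 0.58 ± 0.12. Aurora kinase A (AURKA) rose by 0.54 ± 0.09, the checkpoint kinase BUB1 by 0.43 ± 0.07 and cyclin B1 (CCNB1) by 0.39 ± 0.08. PLK1 read 10.58, 10.30 and 10.56 untreated and 10.58, 10.90 and 10.78 treated, so the lowest treated value equalled the highest untreated one to 2 decimals, with a change of 0.27 ± 0.10 (adjusted p = 0.0403); without treated culture 2 the adjusted p was 0.286. MKI67 (0.06), CDC20 (0.09), CDC25C (0.02) and securin (PTTG1, -0.01) were among the 9 members that did not pass. Without treated culture 2, 16 members rose and the median was 0.35; after a loess adjustment of each C13 array for the level of the gene, 22 rose and the median was 0.32. Fitted on the C13 arrays alone, 12 rose.

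PLK1 and TOP2A promoters are shown for the pair of elements that G2/M genes are known to share, the CCAAT box and the cell cycle homology region (CHR, letters TTTGAA). Both are marked in capitals, on either strand, in the 250 bases before the RefSeq start (GRCh38.p14), 5′ to 3′ along the gene. They lie at chr16:23678639-23678888 on the plus strand for PLK1 and chr17:40417897-40418146 on the minus strand for TOP2A.
PLK1: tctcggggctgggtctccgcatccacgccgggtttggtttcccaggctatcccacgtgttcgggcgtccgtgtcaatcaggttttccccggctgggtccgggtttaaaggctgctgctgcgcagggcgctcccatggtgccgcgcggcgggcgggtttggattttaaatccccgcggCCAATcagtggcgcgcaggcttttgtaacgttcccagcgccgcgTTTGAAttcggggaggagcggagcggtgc
TOP2A: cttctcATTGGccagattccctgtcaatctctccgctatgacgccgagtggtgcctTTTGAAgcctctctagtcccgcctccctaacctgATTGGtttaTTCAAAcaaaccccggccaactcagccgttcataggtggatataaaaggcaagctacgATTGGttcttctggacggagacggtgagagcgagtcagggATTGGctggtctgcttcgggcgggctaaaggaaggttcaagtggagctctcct
The PLK1 CHR begins 29 bases before the start and its CCAAT box 73 bases before it. Of the 23 mitotic genes that rose, 18 had a promoter entry. TTTGAA was in 13 of these 18 windows, against 15.4% of all windows, and CCAAT in 14, against 35.7%.

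The other lines differed widely in the mitotic genes. Of the 17, DOV13B alone had a higher list median (0.49) than C13, with DOV13 next below (0.32), and it was lowest in A2780 (-0.53) and HeyA8 (-0.47). In A2008 it was -0.14, with 1 member higher and 3 lower (1.76% and 3.39% of all genes were). Against the mean response of the 17 other lines, 25 of 32 mitotic genes were higher in C13, where 7.37% of all genes were, and none lower; without treated culture 2 it was 23. For the histone list, C13 had the lowest median of the 18 lines, followed by HeyA8 (-1.17) and OVCA420 (-0.96). Here 27 of 41 members fell further than in the other lines (4.22% of all genes did) and H3C8 was above them; without treated culture 2, 25 did. HeyA8 and OVCA420 had more members called lower than C13, 36 and 37, with smaller medians. Several other lines also had a histone median below 0 with a mitotic median above 0. They included OVCA420 (-0.96 and 0.11), DOV13 (-0.63 and 0.32) and DOV13B (-0.30 and 0.49).

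**Figure D3:**
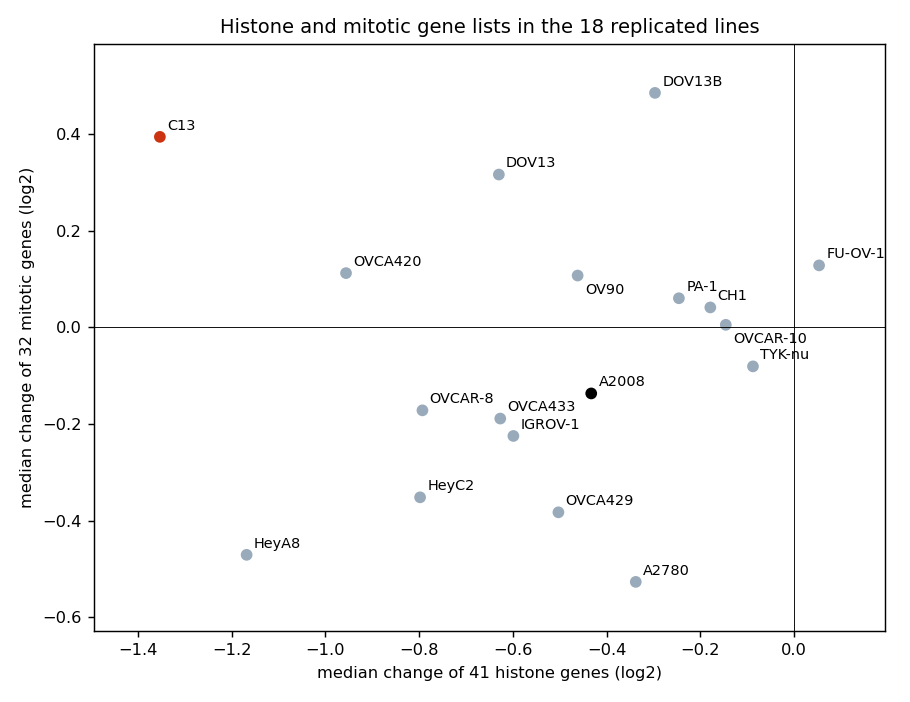
Median change of the 41 histone genes (horizontal axis, log2) against that of the 32 mitotic genes (vertical axis, log2) in each of the 18 replicated lines; each point is a line, C13 in red and A2008 in black. C13 stands at -1.35 and 0.39, and A2008 at -0.43 and -0.14.

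Targets of p53 rose in C13. The transcription factor p53 is kept low by MDM2 and accumulates once DNA damage kinases modify it. Of 35 targets measured, 21 rose (10.3% of all genes did), none fell, and the arms did not overlap in 29 (32.9% of all genes); the median change was 0.54. The inhibitor of cyclin-dependent kinases CDKN1A (p21) read 7.34, 7.25 and 7.07 untreated and 8.17, 8.56 and 8.26 treated, a rise of 1.11 ± 0.15 (adjusted p = 1.11e-08). MDM2, the ligase that degrades p53, read 8.43, 8.46 and 8.52 untreated and 9.58, 9.71 and 9.59 treated, a rise of 1.15 ± 0.12 (adjusted p = 1.05e-11). Neither gene showed any overlap between arms.

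Other arrest and survival targets followed. TRIM22, a ubiquitin ligase also induced by interferon, rose by 1.84 ± 0.47, the cofactor TP53INP1 by 1.49 ± 0.24, the stress cytokine GDF15 by 0.99 ± 0.23, SESN1 by 0.96 ± 0.12 and the ubiquitin ligase subunit FBXW7 by 0.95 ± 0.14. The metabolic target TIGAR rose by 0.83 ± 0.13, the death receptor FAS by 0.72 ± 0.14 and the phosphatase PPM1D by 0.42 ± 0.10. Among the death effectors, BBC3 (PUMA) stood at -0.30 (adjusted p = 0.169) and PMAIP1 (NOXA) at 0.67 (adjusted p = 0.179). Of 11 pro-apoptotic BCL2 genes, BCL2L11 (BIM) rose by 0.37 ± 0.12 and HRK fell (-0.54 ± 0.13); without treated culture 2 neither passed. In the death receptor list of 10, 4 rose (10.3% of all genes did): the inhibitor CFLAR (0.96 ± 0.22), the caspase CASP10 (0.92 ± 0.22), FAS and the TRAIL receptor TNFRSF10B (0.69 ± 0.12). In all, 17 p53 targets rose without treated culture 2. The p53 list median of C13 was rank 6 of 18 lines, where the others ran from 0.11 to 0.73.

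Genes of inflammation rose in C13, cytokines among them. NF-kB is a transcription factor that is held in the cytoplasm by inhibitors and drives cytokine genes once released. Of 25 of its targets, 9 rose (10.3% of all genes did), none fell, and the median was 0.27. TNFAIP3 (A20), a feedback inhibitor of the pathway, read 6.91, 6.60 and 6.44 untreated and 8.35, 8.64 and 8.32 treated, a rise of 1.79 ± 0.27 (adjusted p = 3.78e-07). CCL20, a chemokine, read 5.83, 5.74 and 6.21 untreated and 7.36, 7.55 and 7.31 treated, a rise of 1.48 ± 0.20. IL6 read 4.54, 4.63 and 4.36 untreated and 5.35, 5.88 and 5.47 treated, a rise of 1.06 ± 0.30 (adjusted p = 0.00812), which became 0.90 without treated culture 2 (adjusted p = 0.0808). All 3 had treated cultures above the untreated ones.

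The cytokine IL1B rose by 1.11 ± 0.36, the adhesion receptor ICAM1 by 1.01 ± 0.26, IRF1 by 0.68 ± 0.17, the cytokine LIF by 0.62 ± 0.17, the subunit NFKB2 by 0.48 ± 0.14 and NFKB1 by 0.27 ± 0.10. CXCL8 (0.92, adjusted p = 0.0578) and IL1A (0.92, adjusted p = 0.232) did not pass. Of the 25 targets, 4 rose without treated culture 2, when IL6, IL1B, LIF, NFKB2 and NFKB1 missed the threshold. In A2008 none of the 25 passed in either direction, and the test of the difference called TNFAIP3 and CCL20 higher in C13 (3.57% of all genes were). Against the other lines these and NFKB1 were higher.

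TNFAIP3 and IL6 promoters are shown because the kappa B motif lies near their starts. It is marked in capitals, on either strand, in the 250 bases before the RefSeq start (GRCh38.p14, plus strand), at chr6:137867009-137867258 and chr7:22726950-22727199.
TNFAIP3: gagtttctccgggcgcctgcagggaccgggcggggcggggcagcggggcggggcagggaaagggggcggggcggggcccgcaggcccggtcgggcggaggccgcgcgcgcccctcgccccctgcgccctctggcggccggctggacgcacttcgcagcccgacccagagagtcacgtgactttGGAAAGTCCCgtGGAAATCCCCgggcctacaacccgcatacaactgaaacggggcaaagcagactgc
IL6: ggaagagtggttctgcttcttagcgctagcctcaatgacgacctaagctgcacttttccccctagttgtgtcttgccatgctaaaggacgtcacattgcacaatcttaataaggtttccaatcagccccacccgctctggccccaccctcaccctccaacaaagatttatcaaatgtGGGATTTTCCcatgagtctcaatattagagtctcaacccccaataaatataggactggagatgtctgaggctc
TNFAIP3 has a pair of matches that begin 67 and 55 bases before the start, and IL6 has one at 73 bases. The motif was in 5 of the 8 windows matched for the 9 risen targets, against 10.8% of all windows.

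Relatives of interleukin 1 and its receptors also moved; this list of 18 genes and the next lists of acute phase, kynurenine, serpin, CEACAM and ABC transporter genes were drawn up after the values were seen. In the interleukin 1 list 6 members rose (10.3% of all genes did) and IL36B fell (-0.42 ± 0.14). The IL33 receptor IL1RL1 read 3.48, 3.98 and 3.87 untreated and 4.87, 5.72 and 5.62 treated, a rise of 1.63 ± 0.16. The decoy receptor IL1R2 rose by 1.19 ± 0.31, IL33 by 0.93 ± 0.16, the antagonist IL1RN by 0.76 ± 0.18 and the co-receptor IL1RAP by 0.38 ± 0.13. IL1B, IL36B and IL1RAP missed the threshold without treated culture 2.

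Acute phase and complement genes encode serum proteins of the early immune response. Of 31, 8 rose (10.3% of all genes did) and C6 fell (-0.40 ± 0.15), while the median was -0.02. SAA2, a serum amyloid A gene, read 4.86, 5.07 and 5.23 untreated and 6.89, 7.46 and 6.97 treated, a rise of 2.05 ± 0.28 (adjusted p = 4.14e-08). Its near-identical neighbour SAA1 rose by 1.82 ± 0.36, and the array may not separate them. C1S, the protease that starts the classical complement cascade, read 5.98, 5.90 and 6.01 untreated and 7.40, 8.11 and 7.74 treated, a rise of 1.79 ± 0.19 (adjusted p = 9.36e-12). LCN2, which binds iron-carrying siderophores, rose by 2.13 ± 0.23, C4BPB, a complement inhibitor subunit, by 1.66 ± 0.16, and C1R by 0.69 ± 0.17. Without treated culture 2, the number that rose was also 8, while C6 missed the threshold.

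Interferon-stimulated genes encode antiviral proteins. Of 27, 12 rose (10.3% of all genes did) and none fell, with a median of 0.43. In 18 the arms did not overlap (32.9% of all genes). IFIT2 read 6.73, 6.89 and 7.02 untreated and 8.59, 8.92 and 8.63 treated, a rise of 1.83 ± 0.29 (adjusted p = 1.3e-06). RIGI, the sensor of viral RNA, read 6.56, 6.63 and 6.86 untreated and 7.68, 8.17 and 7.94 treated, a rise of 1.24 ± 0.15. For both, every treated culture exceeded every untreated one. IFIT1 rose by 0.97 ± 0.22, IFIT3 by 0.86 ± 0.26, HERC6 by 0.80 ± 0.14, OAS1 by 0.64 ± 0.14 and IFI6 by 0.58 ± 0.14, whereas RSAD2 was at -0.35. This count was 7 without treated culture 2, and IFIT3 was among those lost. The interferon-stimulated response element (ISRE), searched by its core on both strands, was in 5 of the 9 windows matched for the 12 risen genes, against 3.65% of all windows. The difference from A2008 was called for 6 members, each higher in C13 (3.57% of all genes were); it was 3 without C13 treated culture 2 and 2 without the A2008 cultures numbered 1. Against the other lines 5 were higher (7.37% of all genes were), or 3 without treated culture 2. Antigen presentation genes moved little: MR1 (0.93 ± 0.14) and TAP1 (0.39 ± 0.12) rose among 9, TAP1 not without treated culture 2.

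The kynurenine pathway breaks down tryptophan, and IDO1, which opens it, is known as an interferon target. IDO1 read 4.15, 4.32 and 3.84 untreated and 5.60, 5.77 and 5.60 treated, a rise of 1.55 ± 0.23 (adjusted p = 2.52e-07). KMO, the monooxygenase further down, read 3.21, 2.94 and 3.27 untreated and 4.90, 5.67 and 5.08 treated, a rise of 2.08 ± 0.19. KYNU rose by 0.54 ± 0.17 and the aminotransferase gene AADAT fell (-0.65 ± 0.14). The other 7 of the 11 members did not pass, where 10.3% of all genes rose and 7.34% fell.

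The gene with the largest rise of all was GKN2, which encodes a gastrokine, a secreted protein of the stomach lining. It read 2.98, 2.78 and 2.90 untreated and 6.30, 6.84 and 5.70 treated. The rise of 3.40 ± 0.17, or 10.5-fold (adjusted p = 1.13e-27), compared with changes from -0.39 to 0.27 in the 17 other lines, none of which called the gene. KRTAP3-1, a keratin-associated protein gene of hair, read 5.24, 5.09 and 5.26 untreated and 7.31, 7.95 and 7.69 treated, a rise of 2.46 ± 0.12 against -0.33 to 0.60 elsewhere. Both rises exceeded the mean of the other lines by the test of the difference (adjusted p = 1.58e-26 for each).

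Further large rises were of single genes. AOX1, aldehyde oxidase, rose by 2.13 ± 0.41, CEMIP2, a hyaluronan-degrading surface protein, by 2.12 ± 0.20, the esterase AADAC by 1.92 ± 0.20, the TEAD cofactor VGLL1 by 1.89 ± 0.36, the transmembrane gene TMEM156 by 2.04 ± 0.32 and the tetraspanin TSPAN8 by 1.79 ± 0.16. Each of these 6 also rose beyond the other lines, with adjusted p from 4.89e-15 for TSPAN8 to 0.00152 for AOX1. SERPINB7 rose by 2.07 ± 0.20 and SERPINB10 by 0.57 ± 0.19 among 10 B-clade serpins, inhibitors of proteases; SERPINB10 missed the threshold without treated culture 2. CEACAM1, an adhesion molecule, rose by 1.73 ± 0.15 alone among 11 family members, where 10.3% of all genes rose. MTND2P28, a copy of a mitochondrial gene, read 7.18, 7.99 and 7.43 untreated and 10.44, 9.89 and 8.08 treated; the treated values ranged widely, and its probes may read the mitochondrial transcript.

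Outside the histones, the largest falls were modest; these genes were chosen after their values were seen. NDUFAF4, an assembly factor of respiratory complex I, read 7.74, 8.04 and 8.08 untreated and 6.92, 6.86 and 6.43 treated, a change of -1.22 ± 0.14 (adjusted p = 5.69e-11). TMEM126A, which serves the same complex, changed by -1.004 ± 0.171, and the laminin receptor subunit ITGA3 by -0.98 ± 0.33 (adjusted p = 0.0714 without treated culture 2). Of 17 oxidative phosphorylation genes in a separate list, only NDUFA9 fell (-0.21 ± 0.07), where 7.34% of all genes did.

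Drug transport genes bear on a line selected in cisplatin. The copper importer SLC31A1 (CTR1) carries platinum into cells, ATP7A and ATP7B are copper pumps that can export it, ABCC2 (MRP2) exports glutathione conjugates, and LRRC8A is the obligate subunit of the volume-regulated anion channel. Of 25 transport and detoxification genes, 7 rose (10.3% of all genes did) and none fell, with a median of 0.14. ABCC2 read 8.04, 8.11 and 8.03 untreated and 8.94, 9.18 and 9.11 treated, a rise of 1.01 ± 0.14 (adjusted p = 6.68e-08). Its change in the 17 other lines ran from -0.37 to 0.30, none called, and the C13 difference from them passed (adjusted p = 1.26e-06).

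SLC31A2, a relative of the copper importer, rose by 0.80 ± 0.11, the multidrug exporter ABCB1 by 0.76 ± 0.19, ABCC5 by 0.75 ± 0.14, ATP7A by 0.45 ± 0.12 and LRRC8A by 0.36 ± 0.10. The importer SLC31A1 read 9.89, 9.98 and 10.01 untreated and 9.71, 10.26 and 10.02 treated, with overlapping arms and a change of 0.03 ± 0.12 (adjusted p = 0.871). ATP7B stood at -0.22 (adjusted p = 0.291), and the metallothionein genes MT2A (0.04, adjusted p = 0.94) and MT1X (-0.01, adjusted p = 0.978) did not pass. In 7 members the C13 response was above that of the other lines, where 7.37% of all genes were. Without treated culture 2 this was 3, and the number that rose in C13 was 4, with ATP7A and LRRC8A among those lost. Against A2008, the C13 response was higher in 2 of the 25 (3.57% of all genes were) and lower in none. In the wider list of 35 ABC transporters, 9 rose (10.3% of all genes did) and 2 fell (7.34% did). The lipid carriers ABCA12 (1.59 ± 0.25), ABCA13 (1.26 ± 0.18), ABCA1 (0.91 ± 0.28) and ABCA5 (0.82 ± 0.15) and the drug exporter ABCG2 (0.75 ± 0.16) were among the higher ones. ABCA1 missed the threshold without treated culture 2. The C13 response was above A2008 in 3 of these 35 and below it in none. The list median was 0.07 in C13 and 0.11 in A2008.

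DNA repair lists changed in single genes more than as wholes, where 10.3% of all genes rose and 7.34% fell. POLH, the polymerase that copies past cisplatin crosslinks, read 8.59, 8.29 and 8.35 untreated and 9.44, 9.66 and 9.44 treated, a rise of 1.10 ± 0.09 (adjusted p = 3.67e-17). It was also higher than in A2008, where the change was 0.14 (adjusted p of the difference 4.22e-08), and than in the other lines, whose highest change was 0.91. Of 8 translesion genes, POLK (0.46 ± 0.14), POLQ (0.41 ± 0.13) and RAD18 (0.27 ± 0.09) rose too, and MAD2L2 fell (-0.33 ± 0.12); without treated culture 2, POLH alone of these passed.

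XPC, which finds distorted DNA, rose by 0.99 ± 0.13, its partner in damage recognition DDB2 by 0.39 ± 0.12 and GTF2H3 by 0.32 ± 0.10 among 14 nucleotide excision repair genes, while ERCC1 was at 0.18 (adjusted p = 0.273). XPC read 7.36, 7.45 and 7.43 untreated and 8.29, 8.55 and 8.37 treated, so the arms were well apart. In the Fanconi anaemia and homologous recombination list of 18, BRIP1 (0.57 ± 0.12), RAD51C (0.54 ± 0.13), FANCB (0.52 ± 0.17), XRCC2 (0.35 ± 0.13) and EXO1 (0.27 ± 0.10) rose and BRCA1 was at 0.12 (adjusted p = 0.392). Without treated culture 2, FANCB, XRCC2 and EXO1 missed the threshold, as did DDB2 and GTF2H3. Of 5 mismatch repair genes PMS2 rose (0.38 ± 0.11) and MSH6 fell (-0.41 ± 0.09), and of 15 checkpoint genes CHEK2 rose (0.49 ± 0.14) and RAD1 fell (-0.38 ± 0.11); PMS2 and CHEK2 did not pass without treated culture 2.

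Immediate early genes answer growth and stress signals within minutes, and 10 of 23 were higher after 48 h (10.3% of all genes were). JUND was lower (-0.37 ± 0.10), and the median was 0.33. The phosphatase gene DUSP1 read 8.71, 8.41 and 8.44 untreated and 9.76, 10.16 and 10.04 treated, a rise of 1.46 ± 0.21 (adjusted p = 8.11e-08). HBEGF, a ligand of the EGF receptor, rose by 1.38 ± 0.24, DUSP5 by 0.89 ± 0.12, JUN by 0.88 ± 0.29, FOS by 0.87 ± 0.11 and EGR1 by 0.85 ± 0.14. The EGF receptor list of 10 also held rises of EREG (0.54 ± 0.18) and EGFR (0.35 ± 0.12). Without treated culture 2, 8 immediate early genes rose and 1 of the EGF receptor list did; JUN, JUND, EREG and EGFR missed the threshold.

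Recycling, adhesion and growth factor lists held some called members, where 10.3% of all genes rose and 7.34% fell. Of 16 autophagy genes 7 rose, among them ATG16L1 (0.55 ± 0.11), ATG7 (0.46 ± 0.11) and WIPI1 (0.44 ± 0.08); without treated culture 2 it was 2. Of 18 lysosome genes 5 rose, led by the sialidase NEU1 (0.87 ± 0.22) and the cathepsin CTSB (0.68 ± 0.10). Epithelial genes gave 4 rises of 21: LAMB3 (0.72 ± 0.16), E-cadherin CDH1 (0.69 ± 0.15), CDH3 (0.63 ± 0.14) and CLDN4 (0.50 ± 0.17). CDH1 read 11.10, 10.95 and 10.97 untreated and 11.56, 11.78 and 11.74 treated, with no overlap. In the mesenchymal list of 24, SNAI2, a repressor of E-cadherin, rose (0.71 ± 0.16), COL6A1 (-0.52 ± 0.15) and TWIST2 (-0.39 ± 0.14) fell, and VIM ran from 5.27 to 5.67 over the 6 cultures, with a change of -0.08. Of the genes named here, ATG7, CLDN4, COL6A1 and TWIST2 missed the threshold without treated culture 2.

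TGF-beta and BMP targets had TGFB2 (0.82 ± 0.18), BAMBI (0.66 ± 0.19), TGFBR1 (0.54 ± 0.10) and SNAI2 higher and ID1 lower (-0.71 ± 0.14) among 16. For comparison with this and the next lists, 10.3% of all genes rose and 7.34% fell. YAP targets had 5 of 17 higher, among them TEAD1 (0.49 ± 0.10) and CCN1 (0.93 ± 0.34, adjusted p = 0.0457), and FOXF2 lower (-0.45 ± 0.14); without treated culture 2, 2 were higher. CCN1 missed the threshold when any 1 of the 6 cultures was left out. RNF43 rose (0.87 ± 0.15) and NKD1 fell (-0.45 ± 0.12) among 13 WNT targets. In the glycolysis and hypoxia list 5 of 23 rose, with adrenomedullin (ADM) at 0.92 ± 0.11 and VEGFA at 0.36 ± 0.12; without treated culture 2, 1 did. BAMBI, FOXF2, NKD1 and VEGFA also missed the threshold without that culture.

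Lists of housekeeping, protein synthesis and folding genes had from 0 to 4 members called, where 10.3% of all genes rose and 7.34% fell. None of 10 housekeeping genes passed, with a median of 0.00, and 1 of 18 cytosolic ribosomal protein genes did, RPL19 (-0.40 ± 0.14). Ribosome biogenesis had 4 of 22 lower, with UTP20 (-0.64 ± 0.11) and WDR12 (-0.51 ± 0.11) the furthest, and 3 were lower without treated culture 2. The chaperones DNAJC3 (0.32 ± 0.12), HSP90B1 (0.27 ± 0.06) and HSPA5 (0.24 ± 0.08) rose among 17 genes of the endoplasmic reticulum, and 3 of 10 cytosolic heat shock genes rose; without treated culture 2 these counts were 1 and 0. Aminoacyl-tRNA synthetases had 2 of 13 higher and 1 lower, cholesterol synthesis 1 of 15 higher and 2 lower, and NRF2 targets 1 of 19 lower. None of 12 ovarian carcinoma markers and none of 10 fibroblast markers passed. The leukocyte list (median -0.23) had CD68 higher (0.62 ± 0.14), a gene that epithelial lines also express, and the endothelial list (median -0.20) had CDH5 higher (1.48 ± 0.41) and PECAM1 lower (-0.45 ± 0.15), while PTPRC and VWF were not called. RPL19, DNAJC3, HSPA5, CDH5 and PECAM1 missed the threshold without treated culture 2. PECAM1 also missed it when all probe sets of a gene were averaged.

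Platinum lesions are known to block elongating RNA polymerase, so changes were also set out by the length of the gene. The median change was -0.10 in 10222 genes under 30 kb, 0.03 in 5050 genes of 30 to 100 kb, 0.07 in 2391 genes of 100 to 300 kb and -0.03 in 729 genes over 300 kb. Genes of 100 to 300 kb were called higher in 18.6% and lower in 4.48%, and those under 30 kb in 5.90% and 8.88%. Without the dimmest 30% of genes the median over 300 kb was 0.07. With arrays centred on their median it was -0.003, so its sign depended on the processing. Of 29 genes of common fragile sites and other long genes, 7 fell (7.34% of all genes did), none rose and the median was -0.18. DPH6 read 8.01, 7.93 and 7.87 untreated and 7.11, 7.22 and 6.82 treated, a change of -0.89 ± 0.14, STX8 changed by -0.86 ± 0.15 and SCFD2 by -0.75 ± 0.10. STX8 fell in 5 other lines, furthest in FU-OV-1 (-3.77).

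The call lists of C13 and the parental line overlapped in part. In A2008, 324 genes rose (1.76%) and 625 fell (3.39%). Of the genes that rose in C13, 187 also rose in A2008, which is 9.82% of the C13 genes and 57.7% of the A2008 genes. The shared falls numbered 168, or 12.4% and 26.9%. There were 22 genes higher in C13 and lower in A2008, 2 genes the other way, and the correlation of both changes across the 18417 genes was 0.21, which treats genes as points that share their libraries.

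Tested directly, the C13 response was above that of A2008 in 658 genes (3.57%) and below it in 230 (1.25%). Of the 3256 genes called in C13, 685 differed from A2008 by this test, and the others were not shown to differ. Fitted on the arrays of both lines alone, 72 genes differed. In A2008, untreated culture 1 stood apart, with a highest correlation with another A2008 array of 0.983, against 0.990 to 0.994 for the other 5. Without the A2008 cultures numbered 1, 421 genes differed, and without C13 treated culture 2, 340 did. C13 was in batch 3 and A2008 in batch 2, so each response was taken within its batch, and line and batch cannot be told apart in the difference.

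Mitotic and histone genes differed between both lines. The C13 response was above that of A2008 in 22 of 32 mitotic genes (3.57% of all genes were) and below it in none. This was 17 without C13 treated culture 2 and 13 without the A2008 cultures numbered 1. Over all genes, 340 and 421 differed in either direction under these omissions, against 888 with every culture. BUB1 went from 10.04 ± 0.05 (SD, n = 3) to 10.48 ± 0.09 in C13 and from 10.32 ± 0.03 to 9.88 ± 0.10 in A2008, a difference of 0.87 ± 0.09 between the responses (adjusted p = 1.97e-10). TOP2A went from 11.39 ± 0.17 to 11.46 ± 0.13 in A2008, against the rise of 0.79 in C13 (adjusted p of the difference 4.13e-06). Histone genes fell in both, with 17 of 41 lower in A2008 (3.39% of all genes were). The fall was further in C13 for 21 members (1.25% of all genes were below A2008), or 20 and 18 under the same omissions. H2BC14 went from 11.91 ± 0.22 to 10.89 ± 0.03 in A2008, so both lines began at a like level, and the difference between the responses was -2.24 ± 0.23.

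**Figure D4:**
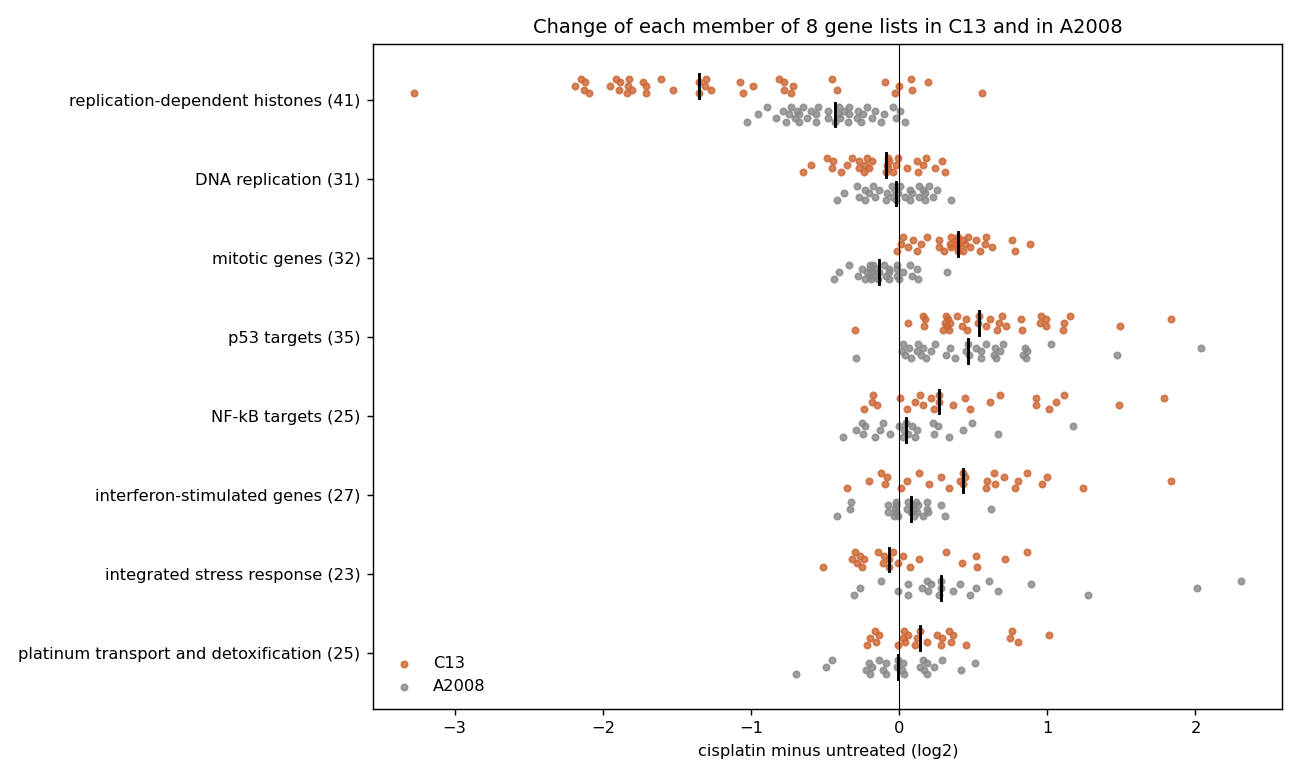
Cisplatin minus untreated (log2, horizontal axis) for each measured member of 8 gene lists, C13 in orange above and A2008 in grey below, with a black bar at each median. Histones have medians of -1.35 and -0.43, mitotic genes 0.39 and -0.14, p53 targets 0.54 and 0.46, and integrated stress genes -0.07 and 0.28.

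Of the 35 p53 targets, 17 rose in A2008 (1.76% of all genes did), with a median of 0.46, against 21 in C13 (10.3% did). The difference was called in 6 of 35. POLH, SESN1, XPC and FBXW7 rose further in C13, where 3.57% of all genes were above A2008. GDF15 (2.04, against 0.99 in C13, adjusted p = 0.0424) and TP53I3 (0.70 against 0.17) had the larger values in A2008. Of all genes, 1.25% were below A2008 in C13. CDKN1A rose by 1.47 in A2008 and its difference of responses did not pass (adjusted p = 0.301). LCN2 rose in both, by 2.13 and 1.94 (adjusted p of the difference 0.771).

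The integrated stress response was, by its median, lower in C13 than in A2008. It is driven by the factor ATF4 and its targets when translation initiation is curbed. In C13, 5 of 23 members rose (10.3% of all genes did) and 2 fell (7.34% did), with a median of -0.07. In A2008, 11 rose (1.76% of all genes did) and none fell, with a median of 0.28. DDIT3 (CHOP), the death-linked factor, read 7.14, 7.61 and 7.63 untreated and 7.88, 8.18 and 7.87 treated in C13, a rise of 0.52 ± 0.17 (adjusted p = 0.199 without treated culture 2), against a rise from 7.55 ± 0.34 to 9.56 ± 0.33 in A2008. The difference was -1.49 ± 0.25 (adjusted p = 3.08e-05). TRIB3 stood at -0.14 (adjusted p = 0.45) in C13 and went from 6.88 ± 0.24 to 8.15 ± 0.04 in A2008, and NUPR1 rose by 0.86 and 2.31.

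Responses were also below A2008 for the amino acid enzymes ASNS (-0.51 against 0.36) and PSAT1 (-0.27 against 0.41), for ATF4 itself (-0.28 against 0.15) and for CHAC1 (-0.07 against 0.67), each called in the difference. Stronger in C13 were CTH, which makes cysteine (0.72 against -0.31), and ATF3 (0.43 against -0.12). Members below A2008 numbered 7 (1.25% of all genes were), and 6 without C13 treated culture 2 and 5 without the A2008 cultures numbered 1. Against the mean of the other lines, 2 members were higher in C13 (7.37% of all genes were) and none lower, a share near that of all genes; without treated culture 2 it was 1.

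**Figure D5:**
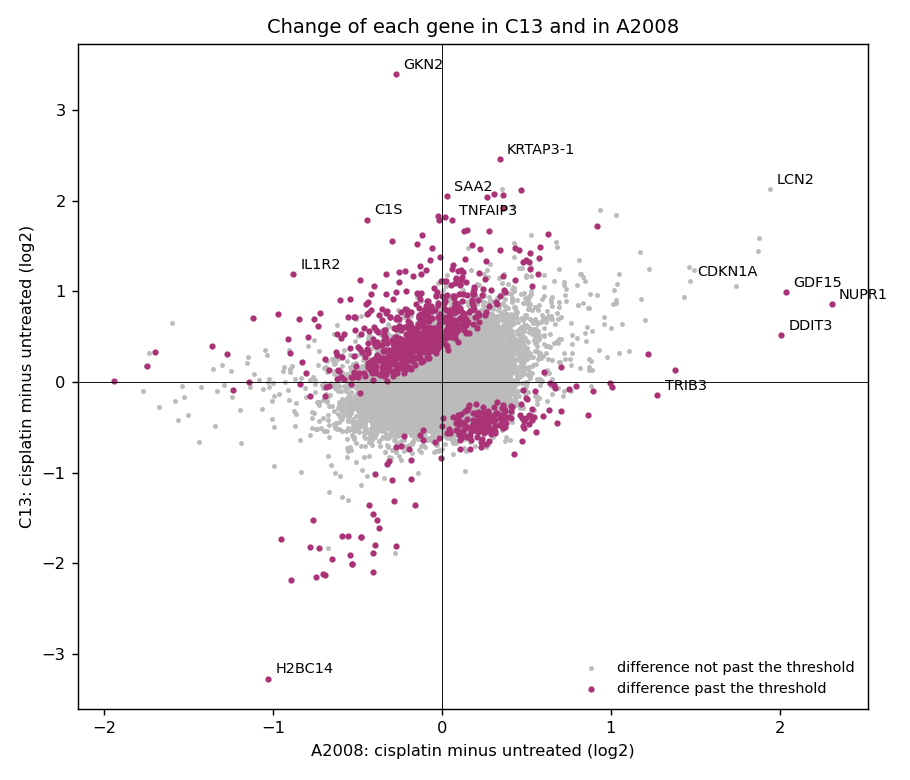
Change of each of the 18417 genes in A2008 (horizontal axis, log2) and in C13 (vertical axis, log2); genes whose responses differ past the threshold are purple, the others grey. GKN2 lies at -0.27 and 3.40, LCN2 near the diagonal at 1.94 and 2.13, and DDIT3 at 2.01 and 0.52.

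Set against the mean of the 17 other lines, the C13 response was higher in 1357 genes (7.37%) and lower in 777 (4.22%). Without treated culture 2, 877 genes differed in all. Of the 3256 genes changed in C13, 1915 also differed from this mean. The 10 largest excesses were of GKN2, KRTAP3-1, KMO, CEMIP2, TSPAN8, AADAC, AOX1, TMEM156, VGLL1 and LCN2, and the 10 largest shortfalls were of histone genes, led by H2BC14 (-2.07 ± 0.17). A single line, OVCAR-8, had a deeper fall of H2BC14 (-3.53) than C13.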

How the data were processed

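For all 171 arrays the authors deposited log2 values per probe set. The submitters' processing notes name RMA as the tool; its version is not stated in the sources used here. The method corrects background, normalises quantiles over arrays and summarises probes, so a shift common to most genes is removed. Of 33297 probe sets, 19460 had 1 symbol in the platform annotation, 1754 had several and 12083 were not listed. The probe set with the highest mean stood for its gene. A group-means model was fitted with limma 3.58.1 (R 4.3.3, eBayes) to 107 cultures of the 18 lines with replicates in batches 1 to 3, with repeat arrays of a culture averaged, giving 71 residual degrees of freedom. Contrasts were C13 treated minus untreated, that minus the same in A2008, and that minus the mean of the 17 other lines. P-values were adjusted by Benjamini-Hochberg over 18417 genes, and the code was tested on simulated data. The number of arrays limits the precision. C13 as the subject, its members and the gene lists were chosen with earlier results of these data known; within that, arrays were taken by label. Genes were named by rule: the 15 changes of greatest size each way with arms that did not overlap, up to 5 members per list, a fixed set, and the 10 largest differences per contrast and direction; other genes named were chosen after their values were seen. Promoters come from RefSeq (GRCh38.p14). The alternatives were C13 arrays alone, batch 3 alone, omitted cultures or lines, a replicate block, median centring, quantile and loess scaling, a filter on the dimmest 30%, mean probe sets, a minimum change of 1.2-fold, trended eBayes and an ordinary linear model.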

Additional observations from a re-analysis of the deposited data

Results flagged for a closer look

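The 20 genes below are those named for the difference between the C13 and A2008 responses, each past the threshold of the limma test of that difference, and the values are C13 minus A2008 on the log2 scale. Secreted and inflammatory genes responded more in C13: GKN2 by 3.67, C1S by 2.23, SAA2 by 2.02, IFIT2 by 1.86 and IDO1 by 1.85. The hair gene KRTAP3-1 differed by 2.11 and the decoy receptor IL1R2 by 2.07.

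GPX3 differed by 2.04, CYP1B1 by 1.95 and RGS5 by 1.93, with C13 changes of 0.34, 0.01 and 0.18 that did not pass. In untreated A2008 these genes varied widely, at 7.73 ± 2.88, 8.44 ± 1.44 and 6.49 ± 2.66 (SD, n = 3). Without the A2008 cultures numbered 1 the differences were 0.56 for GPX3 (limma adjusted p = 0.207), 0.58 for RGS5 (adjusted p = 0.497), 0.96 for CYP1B1 (adjusted p = 0.0214), 0.90 for IL1R2 (adjusted p = 0.0292) and 1.54 for IFIT2 (adjusted p = 0.0502).

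Histone genes responded less in A2008: the differences were -2.24 for H2BC14, -1.68 for H2BC7, -1.53 for H2AC21, -1.44 for H2AC4 and -1.48 for each of H4C14, H4C15 and H3C7. Stress genes had lower responses in C13, by -1.49 for DDIT3, -1.45 for NUPR1 and -1.42 for TRIB3.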

How the results depend on the processing

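No called change of a gene named by rule reversed its direction under the alternatives in which these genes were checked. They were not checked under quantile scaling, the dim-gene filter, the 1.2-fold minimum, trended eBayes or the ordinary linear model. The median change over 300 kb turned from -0.026 to 0.067 without dim genes. The 3256 genes of the C13 response became 1409 when fitted on C13 arrays by themselves, 474 when a change of at least 1.2-fold was required and 342 in an ordinary linear model, and ran from 1628 to 3737 when a culture was left out, lowest without treated culture 2. The 888 genes that differed from A2008 became 72 with the arrays of both lines alone, 109 with the 1.2-fold minimum and 421 without the A2008 cultures numbered 1, and ran from 340 to 1426. The 2134 genes that differed from the other lines became 1169 in batch 3 alone and 236 with the 1.2-fold minimum, and ran from 877 to 2653. Loess scaling and the omission of the A2008 cultures were chosen after seeing the data. With C13 arrays alone 12 mitotic genes rose. With a culture left out, 16 to 23 mitotic genes, 4 to 10 NF-kB targets, 7 to 12 interferon-stimulated genes and 17 to 23 p53 targets rose and 29 to 32 histone genes fell. The median change over 300 kb was -0.003 after centring and ran from -0.035 to -0.010 with a culture left out; that under 30 kb ran from -0.106 to -0.067. The share called higher in C13 was 58.5%, and 54.2% after quantile scaling, 73.5% with C13 arrays alone and 81.2% with the minimum change. Against the other lines it was 63.6%, and 61.1% after quantile scaling, 78.9% after centring and 80.9% with the minimum change. Against A2008 it was 74.1%, and 58.3% with the arrays of both lines alone, 64.2% after quantile scaling and 82% without A2008 treated culture 2. Of 167 named genes called in C13, 60 missed the threshold with C13 arrays alone and 52 without treated culture 2. The cause was not tested.

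Replicate numbers did not pair the cultures: same-numbered arms correlated at -0.15, -0.256 and -0.192. With the number as a replicate block, 2839 genes changed in C13, 677 differed from A2008 and 1756 from the other lines.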
